A study of Mus musculus with 23 samples.

Results

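The genes described are the immunoglobulin kappa variable (Igkv) segments, taken as every gene whose symbol starts with Igkv in the deposited gene list. They number 160 of 32285 genes. Their unique molecular identifiers (UMIs, 1 per captured RNA molecule) were read in barcodes with at least 1 UMI of Cd79a, which encodes a signalling chain of the B cell receptor. There were 10544 such barcodes in 7 lymph node (LN) libraries and 3446 in 6 bone marrow (BM) libraries.

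The libraries came from C57BL/6 mice (C57BL/6N for the edited zygotes, per the methods of the study), 2 months old per the labels, with wild-type (WT) Stat5b or with a tyrosine of the STAT5B SH2 domain changed in the germline to phenylalanine (Y665F) or histidine (Y665H). LN libraries came from WT (n = 2), heterozygous Y665F (het, n = 3) and homozygous Y665F (homo, n = 2) mice, while the marrow was sampled at n = 2 for each of WT, Y665H and Y665F (zygosity not given in the labels used here). Single-cell RNA was measured by droplet sequencing, and no treatment was given. Replicates are separate libraries per the labels, and the labels do not say which animals they came from, so every p-value measures the spread between libraries, which may be technical in part. The legend of the study's spleen single-cell figure, which names lymph nodes for its cell map, describes a sample pooled from 3 mice per group. A library may therefore be a pool of mice.

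A kappa light chain is assembled in a developing B cell by joining 1 Igkv segment to 1 of a few short joining (Igkj) segments next to the constant gene Igkc. A segment on the same strand as Igkc joins by deletion and a segment on the opposite strand by inversion, and a failed join can be replaced by a second join to a farther segment. A mature B cell therefore usually shows 1 dominant segment, many cells together show the repertoire, and a plasma cell makes far more of its segment than a resting B cell. STAT5, downstream of the interleukin-7 receptor, is known to hold kappa recombination back in B cell precursors.

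All 160 segments matched the GENCODE vM21 annotation of the GRCm38 genome, the build named for these files. They span chromosome 6 from 67555497 to 70704177 (3149 kb), ahead of Igkc at 70726435 to 70726966 on the plus strand. The annotation lists 100 as functional variable genes and 60 as pseudogenes, in 20 sequence families, with 75 on the strand of Igkc and 85 on the opposite strand. For 53 segments, over 50% of the 31-base words of the transcript are also present in another segment, and counts of these are uncertain between close relatives.

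The part of each segment that differs most between cells' receptors is its 3′ end, which gives the germline start of the third complementarity-determining region (CDR3). The ends of the 12 most used LN segments are shown to let a reader see how the leading members differ. They are read 5′ to 3′ on the coding strand from the GENCODE transcripts, and capitals run from the conserved cysteine codon to the end of the annotated segment.
Igkv10-96: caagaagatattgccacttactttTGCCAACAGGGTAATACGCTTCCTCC
Igkv1-117: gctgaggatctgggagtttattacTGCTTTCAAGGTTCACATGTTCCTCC
Igkv1-110: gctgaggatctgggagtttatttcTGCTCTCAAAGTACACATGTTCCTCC
Igkv1-135: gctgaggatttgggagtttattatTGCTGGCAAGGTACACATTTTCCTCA
Igkv6-15: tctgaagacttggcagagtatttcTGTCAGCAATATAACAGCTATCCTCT
Igkv6-17: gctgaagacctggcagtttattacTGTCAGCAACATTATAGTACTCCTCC
Igkv12-46: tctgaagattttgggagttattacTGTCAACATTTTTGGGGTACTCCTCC
Igkv12-44: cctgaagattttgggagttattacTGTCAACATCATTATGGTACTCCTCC
Igkv6-23: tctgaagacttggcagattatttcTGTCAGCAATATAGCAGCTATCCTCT
Igkv14-111: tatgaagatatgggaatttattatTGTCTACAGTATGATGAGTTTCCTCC
Igkv9-120: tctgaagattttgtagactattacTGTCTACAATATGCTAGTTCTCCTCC
Igkv19-93: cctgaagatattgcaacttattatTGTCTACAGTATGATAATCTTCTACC
Among the 40 most used segments the codon was found in 40, 34 of them ended 26 bases from the first base of the codon, and 37 distinct ends were present. Igkv6-25 and Igkv8-24, of different families, had the same 26 bases, as did Igkv3-4 and Igkv3-5. Igkv4-59 and Igkv4-72 shared 28 bases.

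The libraries differed in depth and in the cells that Cd79a selected. Median UMIs per Cd79a-positive LN barcode were 732 and 919 in WT, 1976.5, 1090 and 312 in the het libraries, and 301 and 758 in the homo pair, so het replicate 3 and homo replicate 1 were shallow. LN barcodes carried mature B markers (summed level of 6 genes between 6862 and 7916 CPM, which is UMIs scaled to an equal library total). BM barcodes carried precursor B markers (between 624 and 3196 CPM, lowest in Y665F replicate 2), with mature B markers between 31.5 and 86.0 and Ms4a1 at 0 in 3 of 6 libraries. Between 51.6% and 84.0% of Cd79a-positive BM barcodes held just 1 Cd79a UMI (highest in Y665F replicate 2), against 3.43% to 42.2% in LN. For 8 B lineage genes, Blnk among them, the summed BM level was 3869 and 3053 CPM in WT. It was 2974 and 2725 in Y665H, and 2794 and 1041 in Y665F. Neutrophil and monocyte markers in BM were higher in Y665F (2382 and 2655 CPM) than in WT (548 and 816) or Y665H (1042 and 642), and their part in the results was not tested. Between 4.83% and 10.9% of Cd79a-positive LN barcodes also held a Cd3 UMI. Libraries shared few barcode sequences, at most 12 per pair. The ratio of Igkv to Igkc UMIs was between 5.33 and 8.74 in LN and between 0.0158 and 0.0168 in the 3 spleen libraries, so the spleen was left out.

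Igkv was read in most LN B cells of every genotype. Any Igkv UMI was present in 91.5% and 92.2% of Cd79a-positive barcodes in WT, in 92.7%, 91.0% and 79.1% in het, and in 81.6% and 91.0% in homo. The lowest shares were those of the shallow libraries. Among barcodes with a Cd3 UMI and no Cd79a, which should lack light chains, the share was between 0.453% and 2.02%, at median depths of 452 to 3470 UMIs. At an equal depth of 300 UMIs per barcode, which left out shallower barcodes (447 of 810 were kept in het replicate 3 and 352 of 690 in homo replicate 1), the expected share was 76.7% ± 1.96 (SD, n = 2) in WT, 74.8% ± 4.51 (n = 3) in het and 76.5% ± 5.01 (n = 2) in homo. The genotypes overlapped. A trend over WT, het and homo did not pass 0.05 (Jonckheere-Terpstra statistic, two-sided exact permutation of the 7 libraries, p = 0.876). With this design p cannot go below 0.00952.

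The summed Igkv level was 8316 and 7473 CPM in WT, 7228, 6742 and 10239 in the het libraries, and 8138 and 21039 in the homo pair. Homo replicate 2 stood far above the other 6 libraries. The trend was not significant (exact permutation p = 0.648). In that library 65.6% of Igkv UMIs lay in barcodes with at least 2 of 6 plasma cell markers, and 23.8% lay in 1 barcode. Such plasma-marker barcodes made up 3.13% and 4.61% of Cd79a-positive barcodes in WT. They were 8.54%, 4.04% and 0.741% in the het libraries, and 1.01% and 3.30% in the homo pair. Their share was lowest in the shallow libraries. In het replicate 1, the deepest, they held 9.78% of Igkv UMIs, near their share of barcodes. The markers thus do not pick plasma cells alone, and leaving them out removed unlike parts of each library. Without plasma-marker barcodes the levels were 6797 and 6147 in WT, 7235, 6804 and 5876 in the het libraries, and 7032 and 7965 in the homo pair. Each homo library then lay above each WT library, with a mean difference of 1026 CPM that did not pass the test (exact permutation p = 0.152).

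To describe the repertoire, a barcode was assigned to a segment when it held at least 2 Igkv UMIs and at least 75% of them came from that segment. This assigned 2239 and 2089 barcodes in WT, 913, 904 and 396 in the het libraries, and 351 and 649 in the homo pair, 7541 in all. They were led by 96 of the 160 segments, of which 93 are functional genes and 3 are pseudogenes. The pseudogenes led 0.0796% of the assigned barcodes. Among the segments that led none, 7 are functional genes (Igkv1-131, Igkv4-81, Igkv20-101-2, Igkv4-71, Igkv4-78, Igkv1-35 and Igkv4-54, with 2 to 24 UMIs each over all LN libraries), and 44 pseudogenes had no LN UMI at all. In every LN library 55 segments led at least 1 barcode.

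Use was uneven. The 12 most used segments took 41.1% of assigned barcodes on average, the 24 most used took 64.5%, and 40 segments reached a mean of 1%. Igkv10-96 (ENSMUSG00000094420, chromosome 6, 68631963 to 68632442, minus strand) led on the mean over libraries, though not in every library, with 5.72% and 6.03% of assigned barcodes in WT. The het shares were 6.79%, 4.65% and 5.05%, and the homo shares 4.27% and 5.86%. Its genotypes overlapped. Across the 96 segments, Pearson's r of the shares between pairs of libraries ran from 0.817 to 0.956 within a genotype and from 0.777 to 0.946 between genotypes. The medians were 0.874 and 0.896, so libraries of the same genotype were not more alike by the median. These correlations are across segments, share the same annotation, and are given with no test.

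**Figure D1:**
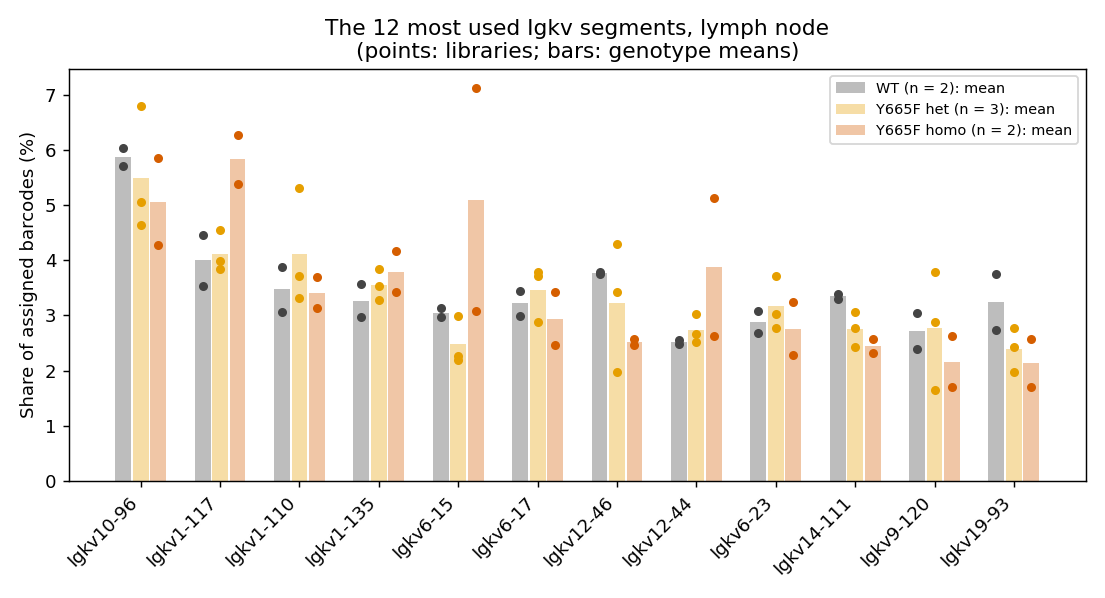
Share of assigned barcodes (%, vertical axis) led by each of the 12 most used Igkv segments in LN, with a point for each library and a bar for each genotype mean (WT n = 2, het n = 3, homo n = 2). Igkv10-96 had the highest mean share, and the highest point is Igkv6-15 in homo replicate 1 at 7.12%.

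Igkv1-117 (chromosome 6, 68121046 to 68121827, plus strand) was second, at 4.47% and 3.54% in WT, 3.83%, 3.98% and 4.55% in the het libraries, and 6.27% and 5.39% in the homo pair. Both homo libraries lay above the other 5. Counted as barcodes that hold the segment, its log2 fold change in homo against WT was 0.87 (SE 0.378, edgeR adjusted p 0.723), which was not a call, and the median of the 59 segments tested in that count was 0.51. On summed UMIs it was 0.06 (SE 0.304, edgeR adjusted p 0.9999), and 0.68 (SE 0.183, adjusted p 0.560) without plasma-marker barcodes. Igkv6-15 (chromosome 6, 70406469 to 70406992, minus strand) reached 7.12% in homo replicate 1 (25 of 351 barcodes, exact 95% interval 4.66% to 10.3%), against 3.13% and 2.97% in WT and 3.08% in homo replicate 2. That high value stood in 1 shallow library of 2. Intervals here cover counting error only.

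Igkv12-46 and Igkv14-111 had lower mean shares in homo than in WT. Igkv12-46 (chromosome 6, 69764523 to 69765022, minus strand) took 3.77% ± 0.0212 (SD, n = 2) in WT and 2.51% ± 0.0698 (n = 2) in homo, with 3.23% ± 1.17 (n = 3) in het. Igkv14-111 (chromosome 6, 68256389 to 68256869, plus strand) took 3.35% ± 0.0646 in WT, 2.76% ± 0.317 in het and 2.44% ± 0.179 in homo. For Igkv14-111 all 5 Y665F libraries (2.31% to 3.07%) lay below both WT libraries (3.30% and 3.39%). The homo shares of Igkv12-46 rested on 9 of 351 and 16 of 649 barcodes (exact 95% intervals 1.18% to 4.81% and 1.42% to 3.97%). Those of Igkv14-111 rested on 9 and 15 barcodes (1.18% to 4.81% and 1.30% to 3.78%). Each interval includes both WT shares of its segment, so the small SDs understate the uncertainty. Neither segment was called. When barcodes were counted, their log2 fold changes in homo against WT were −0.19 (SE 0.526) and −0.04 (SE 0.346), at edgeR adjusted p 0.976 and 0.9997. Both lay below the median of the 59 segments tested in that count, 0.51. On summed UMIs Igkv14-111 went the other way, at 1.64 (SE 0.505, edgeR adjusted p 0.553), and at −0.46 (SE 0.190) without plasma-marker barcodes. Igkv12-46 was at −0.10 (SE 0.224) on summed UMIs. Igkv12-44 was at 5.13% in homo replicate 1 and between 2.49% and 3.03% in the other 6 libraries. Igkv1-110 was at 3.42% ± 0.399 in homo and 3.47% ± 0.581 in WT, and Igkv19-93 at 2.13% ± 0.615 and 3.24% ± 0.723.

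By family, the 9 segments of family 6 were used most, at 14.1% ± 0.527 (SD, n = 2) of assigned barcodes in WT, 13.8% ± 0.505 (n = 3) in het and 17.2% ± 2.29 (n = 2) in homo. Family 1 followed at 11.7% ± 1.71, 13.0% ± 1.78 and 14.0% ± 0.0435. Family 4, the largest with 33 members, took 11.3% ± 0.197, 12.9% ± 2.20 and 9.70% ± 2.84. Family 8 was lower in WT (7.01% and 6.56%) than in het (8.65%, 8.74% and 9.09%) and homo (8.55% and 7.24%). That family was singled out after its values were seen and was not tested. Families 7, 18 and 20 have 1 member each and took under 0.05% in every library, and family 11 with 4 members took at most 0.332%.

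Use also varied along the locus. The segments were divided by distance from Igkc into 5 stretches of equal length. The nearest stretch (22.3 to 652 kb, 27 functional segments) took 33.0% of assigned barcodes on average (range over libraries 29.3% to 37.6%). The middle stretch (1281 to 1911 kb, 19 functional segments) took 9.12% (5.13% to 11.4%), the least of the 5 in every library. The next, from 1911 to 2541 kb with 17 functional segments, took 22.9% (20.5% to 24.9%), and the farthest took 17.7% with 16. Per functional segment these means correspond to 1.22%, 0.480%, 1.35% and 1.11%, and the second stretch to 0.823%. In the middle stretch Igkv4-71 (1483 kb) and Igkv4-78 (1666 kb) led no barcode and share 65.1% and 76.5% of their words with other segments. Igkv4-81 (1735 kb) led none either and shares 20.4%. Counts are uncertain where words are shared, and the part of this in the low use of the middle stretch was not tested.

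**Figure D2:**
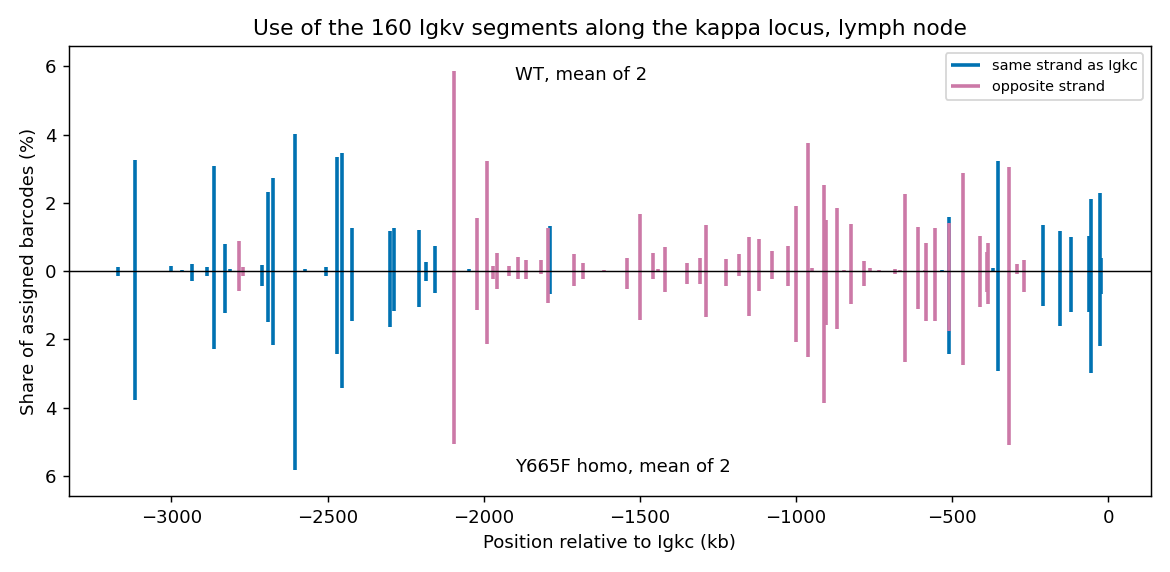
Mean share of assigned LN barcodes (%, vertical axis) for each of the 160 Igkv segments against its position relative to Igkc (kb, horizontal axis), with WT above the line and Y665F homo below it (n = 2 each), coloured by strand. The tall bars lie at the same positions on both sides, and those between 1281 and 1911 kb are short.

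Segments beyond the midpoint of the span, called distal here, are reached by long-range contraction of the locus and can be used in later joins. They led 48.2% and 45.7% of assigned barcodes in WT, 43.3%, 41.7% and 45.2% in the het libraries, and 41.9% and 43.8% in the homo pair. All 5 Y665F libraries lay below both WT libraries, and homo was lower than WT by 4.11 percentage points. By the exact permutation test the trend missed 0.05 (p = 0.152, adjusted p 0.876 over the 7 values tested). Segments on the strand opposite to Igkc led 54.4% ± 1.48 (SD, n = 2) in WT, 54.9% ± 2.31 (n = 3) in het and 53.0% ± 2.42 (n = 2) in homo (exact permutation p = 0.648).

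The effective number of segments, which is the inverse Simpson index and equals the number of equally used segments that would give the same evenness, was 42.8 and 44.1 in WT, 45.1, 47.2 and 43.2 in the het libraries, and 38.9 and 44.0 in the homo pair. The lowest value was that of homo replicate 1. No trend over the genotypes passed 0.05 (exact permutation p = 0.876). All 5 LN values had an adjusted p of 0.876.

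**Figure D3:**
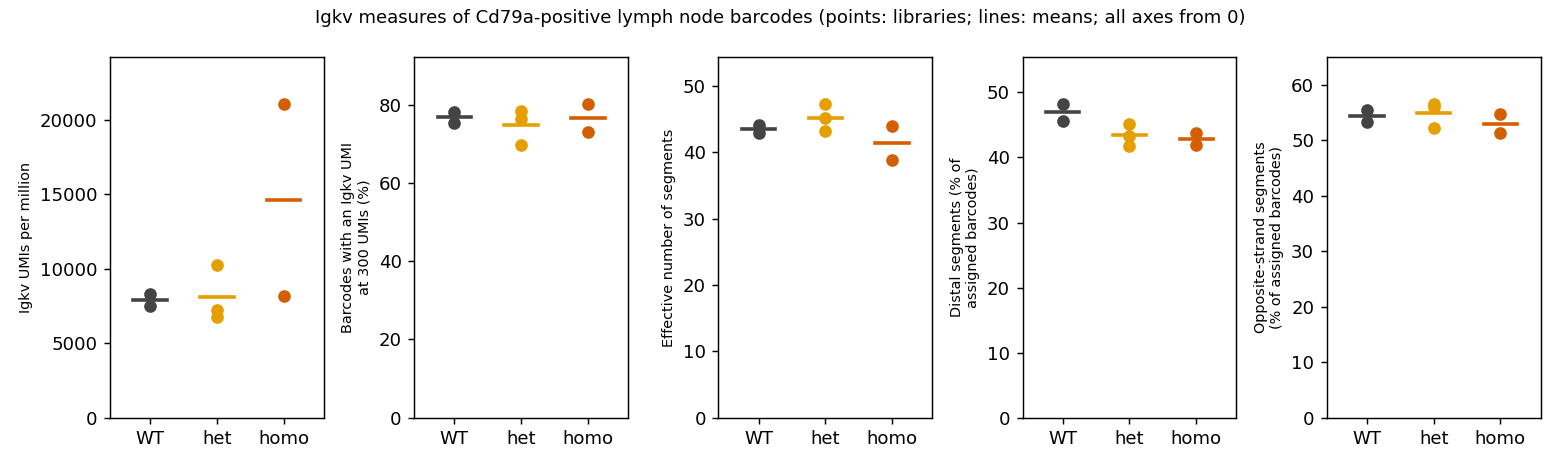
The 5 measures of Igkv in Cd79a-positive LN barcodes, with a point for each library, a line for each genotype mean and vertical axes that start at 0 (WT n = 2, het n = 3, homo n = 2). Homo replicate 2 stands alone in the summed level, at 21039 CPM, and the distal share is the only measure in which all Y665F points lie below the WT points.

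Some barcodes carried a pair of segments. Among barcodes with at least 4 Igkv UMIs, the second segment held at least 2 UMIs and at least 25% of them in 14.1% and 13.5% in WT, 11.8%, 13.5% and 12.6% in the het libraries, and 14.9% and 14.8% in the homo pair. Over the 7 LN libraries these were 927 of 6834 barcodes (13.6%) and 696 different pairs, and in only 14 barcodes did the pair share over 30% of their 31-base words. Their median UMIs were near those of the other barcodes, for example 796 and 764 in WT replicate 1 and 296.5 and 316 in homo replicate 1. A Cd3 UMI was present in 3.30% to 10.2% of them and in 2.50% to 9.30% of the others. Droplets with more than 1 B cell, and cells with a pair of joined kappa alleles, cannot be told apart by these counts.

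Igkv1-135 (chromosome 6, 67609713 to 67610508, plus strand, among the segments farthest from Igkc) was the commonest member of such pairs and was singled out after its values were seen. It made up 8.21% and 7.84% of the paired segments in WT, 7.63%, 6.25% and 2.27% in the het libraries, and 12.5% and 8.79% in the homo pair. Its share of the assigned barcodes was 3.57% and 2.97%, 3.83%, 3.54% and 3.28%, and 3.42% and 4.16%. On average these were 7.64% and 3.54%, a ratio of 2.16. The share in pairs was higher in 6 of 7 libraries, with het replicate 3 (1 barcode) the exception. The share in pairs was higher in 6 of 7 libraries for 7 of the 99 segments seen in pairs, and some less used ones had a larger ratio. Igkv1-88 made up 1.36% of paired segments and 0.249% of assigned barcodes (22 barcodes). Igkv4-92 made up 1.14% and 0.102% (8 barcodes), and Igkv9-129 1.08% and 0.0896% (7 barcodes), so these ratios rest on few barcodes. The others were Igkv17-127 (3.04% and 2.36%), Igkv5-43 (2.04% and 1.49%) and Igkv1-133 (0.610% and 0.138%). Igkv10-96, the next commonest in pairs, made up 4.79% of paired segments and 5.48% of assigned barcodes on average. Other well-used segments also went that way, such as Igkv1-117 (2.73% and 4.58%) and Igkv1-110 (1.91% and 3.73%). Their share in pairs was higher in 0 and 1 of 7 libraries. None of these differences was tested. Igkv1-135 was also the segment most often held by barcodes assigned to another segment, at a mean of 0.738% (Igkv10-96 0.313%).

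Light chains can also come from the lambda locus. Barcodes with at least 2 UMIs of Iglv1, Iglv2 and Iglv3, and more of these than of Igkv, made up 6.02% and 4.69% of those led by either chain in WT, 6.34%, 8.68% and 7.54% in the het libraries, and 6.998% and 8.68% in the homo pair. Every Y665F library exceeded the WT pair, though WT replicate 1 and het replicate 1 differed by little. This comparison was added after the data were seen and was not tested. Between 9.68% and 33.3% of the lambda-led barcodes also held an Igkv UMI. The joining segments Igkj1 to Igkj5 had 0 UMIs in all LN libraries. Each joined kappa chain holds an Igkj segment, so these counts do not measure their use.

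Differences of single segments between LN genotypes were tested on UMIs summed per library. A call needed an absolute log2 fold change over 1 and an edgeR p under 0.05 after Benjamini-Hochberg adjustment over all genes tested. Of the 160 segments, 86 passed the filter on low counts. In homo against WT, edgeR called 0 of the 86, where 0.0322% of all genes tested were called (3 of 9319). At an unadjusted p under 0.05 there were 19, of which 16 were higher and 3 lower, against 7.24% of all genes, and DESeq2 also called 0. The count of 0 depends on the set of libraries, with 7 called without homo replicate 1 (0.186% of all genes), 2 without WT replicate 1 (0.224%), and 1 each without WT replicate 2 (0.0642%) or homo replicate 2 (0.0294%). The median log2 fold change of the 86 was 0.24, and that of all genes was −0.0048, with DESeq2 size factors in place of TMM giving 0.24 and −0.0039. Without homo replicate 2 the medians were −0.069 and −0.042, and without the filter on low counts −0.077 and −0.0899. Other settings kept the Igkv median above that of all genes. It was 0.175 against −0.0019 without plasma-marker barcodes, and 0.51 against −0.0035 with each gene counted 1 time per barcode. Without WT replicate 1 it was 0.36 against −0.0086, and without homo replicate 1 it was 0.11 against −0.013. In het against WT, 0 were called, where 0.0858% of all genes were called (8 of 9319). There 15 had an unadjusted p under 0.05 (8 higher and 7 lower), against 5.63% of all genes, DESeq2 called 0, and the median was 0.098. Without WT replicate 1 there were 3 calls in het (0.640% of all genes) and without WT replicate 2 there was 1 (0.0963%). An arm left with 1 library was assumed to vary like the other groups.

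The largest positive fold changes in homo against WT rested on a few plasma-marker barcodes. Igkv4-57-1 (chromosome 6, 69544359 to 69544907, minus strand) stood at 24.6 and 29.0 CPM in WT, 23.5, 22.4 and 28.6 in the het libraries, and 23.7 and 903 in the homo pair. The log2 fold change in homo against WT was 4.29 (SE 0.778, edgeR adjusted p 0.0889), and without plasma-marker barcodes it was −0.55 (SE 0.325). A single barcode of homo replicate 2 held 704 of its UMIs.

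Igkv12-44 (chromosome 6, 69814631 to 69815154, minus strand) stood at 198 and 200 CPM in WT, 297, 277 and 162 in the het libraries, and 372 and 5237 in the homo pair. In homo replicate 2, 3970 of its 4159 UMIs came from 1 barcode. The homo against WT log2 fold change was 3.89 (SE 0.777, edgeR adjusted p 0.179), and 0.55 (SE 0.194) without plasma-marker barcodes. Igkv3-2 went from 3.02 (SE 0.661) to 0.01 (SE 0.162) and Igkv6-17 from 2.44 (SE 0.607) to −0.17 (SE 0.168) in the same way.

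Igkv13-84 and Igkv3-10 also had fold changes that were nearer 0 without plasma-marker barcodes. Igkv13-84 had log2 fold changes of −2.41 in homo and −2.09 in het, and of −0.18 and 0.05 without plasma-marker barcodes. A single barcode of WT replicate 2 held 1017 of its 1160 UMIs there. Igkv3-10, at 3.48 in het against WT (SE 1.24, edgeR adjusted p 0.654), was −0.17 without them. Igkv6-13 changed sign and lay farther from 0, going from −1.46 (SE 0.999) to 2.09 (SE 0.461, edgeR adjusted p 0.311) in homo against WT. Without plasma-marker barcodes its level was 0 CPM in homo replicate 1 and 114 in homo replicate 2, against 21.3 and 16.6 in WT. Igkv5-37 and Igkv10-95 had the most negative fold changes in homo with and without plasma-marker barcodes, and rested on few UMIs. Igkv5-37 held 23 and 26 UMIs in WT, 0, 11 and 2 in the het libraries, and 0 and 1 in the homo pair. Igkv10-95 held 32 and 42, then 68, 8 and 2, and then 0 and 2 UMIs. Igkv6-13, Igkv13-84, Igkv3-10, Igkv5-37 and Igkv10-95 were named after their values were seen.

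**Figure D4:**
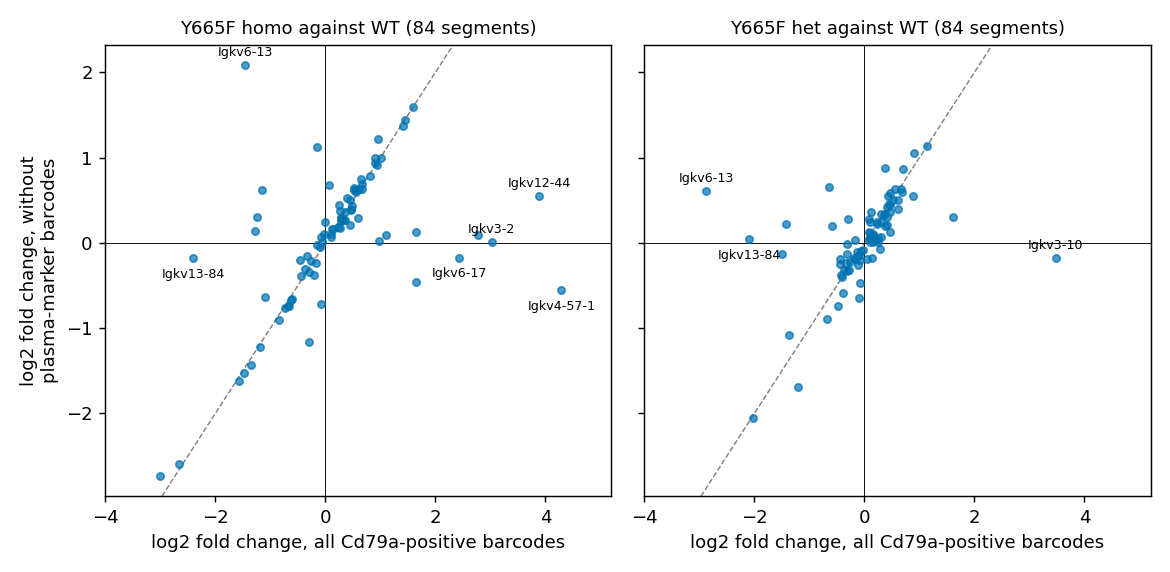
Log2 fold change of the LN segments that passed the filter with and without plasma-marker barcodes, in homo (left) and het (right) against WT, over all Cd79a-positive barcodes (horizontal axis) and without plasma-marker barcodes (vertical axis), with a point for each segment and a dashed line of equality. Igkv4-57-1 at 4.29 and Igkv12-44 at 3.89 lie far to the right of the line, at −0.55 and 0.55 on the vertical axis.

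In Cd79a-positive LN barcodes with at least 100 Igkv UMIs the leading segment held 75.9% of these UMIs or more. There were 5 and 4 of them in WT, 0, 0 and 2 in the het libraries, and 1 and 7 in the homo pair, each with at least 2 plasma markers. In homo replicate 2 the 7 barcodes were led by 7 different segments, which were Igkv12-44, Igkv3-2, Igkv10-96, Igkv6-17, Igkv4-57-1, Igkv14-111 and Igkv17-127. The highest held 3975 Igkv UMIs, 60.2% of all UMIs in that barcode. In WT replicate 1, 3 of the 5 were led by Igkv1-110, with 1354, 533 and 218 Igkv UMIs and each with UMIs of Igha, the constant gene of immunoglobulin A.

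Of the genes that act with the kappa locus, 41 were listed and 31 passed the filter in each tissue. In LN edgeR called 0 of 31 in homo and 0 in het against WT, where 0.0322% and 0.0858% of all genes were called. At an unadjusted p under 0.05 there were 5 and 3, against 7.24% and 5.63% of all genes, and DESeq2 called 0 in both. Igkc, the constant gene that every kappa chain carries, was at 1527 and 1401 CPM in WT, 1295, 1158 and 1453 in the het libraries, and 1142 and 2406 in the homo pair, so homo replicate 1 lay below both WT libraries and homo replicate 2 above them. Its fitted difference from WT was 0.31 on the log2 scale (SE 0.266, edgeR adjusted p 0.857) in homo and −0.17 (SE 0.242, adjusted p 0.987) in het, which did not pass the test.

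In BM few Cd79a-positive barcodes held Igkv. Any Igkv UMI was present in 12.3% and 2.69% of barcodes in WT (of 154 and 633), 13.7% and 2.43% in Y665H (of 256 and 370), and 13.9% and 1.66% in Y665F (of 1189 and 844). Replicate 1 was high and replicate 2 low in every genotype. At 300 UMIs per barcode the shares were 3.89% and 0.890% in WT, 3.77% and 0.758% in Y665H, and 3.52% and 0.207% in Y665F (exact two-sided permutation test for the order Y665H, WT, Y665F, p = 0.844, smallest possible p 0.0222). Genotypes overlapped in part, with Y665F replicate 2 below every WT and Y665H library. The permutation took no account of the split by replicate number. Within each number both mutants lay below WT at 300 UMIs, while any Igkv UMI was more frequent in both mutants than in WT in replicate 1.

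In each BM library 1 or 2 segments were also spread over barcodes with no Cd79a UMI. Without plasma-marker barcodes they held 51.4% and 23.1% of the Igkv UMIs of Cd79a-positive barcodes in WT, 52.6% and 88.9% in Y665H, and 60.4% and 84.6% in Y665F. In WT replicate 1, Igkv14-126 (chromosome 6, 67896172 to 67896642, plus strand) was present in 10.3% of Cd79a-positive barcodes (exact 95% interval 5.87% to 16.4%) and in 9.51% of 4050 Cd79a-negative barcodes (8.62% to 10.5%), plasma-marker barcodes left out of both. Median depths were 1807.5 and 1689 UMIs. In Y665H it was present in 8.30% and 6.83% of replicate 1 and in 2.26% and 3.03% of replicate 2. Igkv15-103 took that place in WT replicate 2 (0.992% and 1.27%). In Y665F it was Igkv1-117 (8.37% and 6.74%) with Igkv1-99 (3.15% and 4.02%) in replicate 1, and Igkv12-89 (1.36% and 0.877%) in replicate 2. In each case the 95% intervals of the Cd79a-positive and Cd79a-negative shares overlapped, which does not show that the shares were equal. For Y665H replicate 2, WT replicate 2 and Igkv1-99 the share was below that of Cd79a-negative barcodes. For Igkv1-117 it was higher, at the lower median depth of 1637 against 2408 UMIs. The source of these UMIs was not tested.

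**Figure D5:**
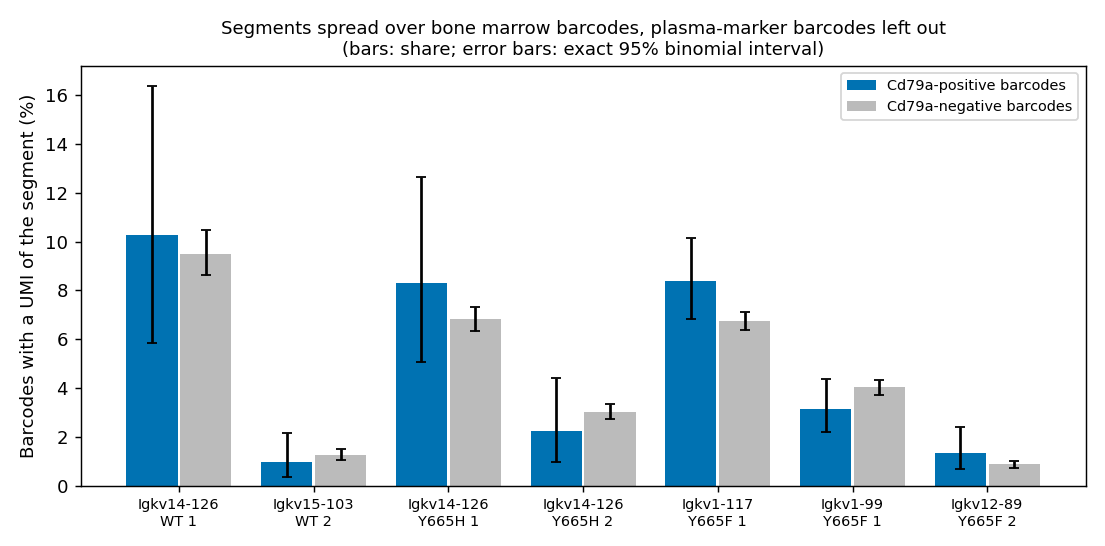
Share of BM barcodes (%, vertical axis) with a UMI of the segments that are spread over each library, in Cd79a-positive and Cd79a-negative barcodes without plasma markers, with exact 95% binomial intervals as error bars. The bars of each pair lie close together, at 10.3% and 9.51% for Igkv14-126 in WT replicate 1 and at 1.36% and 0.877% for Igkv12-89 in Y665F replicate 2.

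In Y665H replicate 1 the segment spread over other barcodes was also that of the barcode with the most Igkv UMIs, a Cd79a-negative barcode with 5 plasma markers and 8204 Igkv UMIs, 60.8% of them Igkv14-126. In WT replicate 1, WT replicate 2 and, for Igkv1-99, Y665F replicate 1, a plasma-marker barcode led by the spread segment held 70, 19 and 71 of its UMIs. In Y665F replicate 1 no plasma-marker barcode held more than 1 UMI of Igkv1-117. With the spread segments left out, an Igkv UMI remained in 3.25% and 1.74% of Cd79a-positive barcodes in WT, 5.08% and 0.270% in Y665H, and 3.11% and 0.355% in Y665F. Between 0.0511% and 0.482% of the Cd79a-negative barcodes held one. The limit of 0.5% of Cd79a-negative barcodes that defined a spread segment was set after the data were seen.

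The BM sums were dominated by a few cells. Igkv stood at 91.0 and 19.5 CPM in WT, 9300 and 12.5 in Y665H, and 1240 and 5.25 in Y665F (exact permutation p = 0.844). In Y665H replicate 1 99.4% of its 6772 UMIs lay in plasma-marker barcodes, and in Y665F replicate 1 94.0% of 3841 did. In WT the 8 and 28 Cd79a-positive barcodes with plasma markers held 0% of them. The leading barcodes were Igkv10-96 with 3639 and 2209 Igkv UMIs and Igkv8-30 with 879 in Y665H, and Igkv9-124 with 2553 and Igkv1-135 with 1040 in Y665F. Without plasma-marker barcodes the levels were 101 and 20.7 in WT, 61.8 and 13.4 in Y665H, and 81.0 and 5.38 in Y665F.

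Only 4 and 2 barcodes in WT, 6 and 0 in Y665H, and 18 and 0 in Y665F could be assigned to a segment, too few for a repertoire. In WT they were 2 of Igkv14-126 and 1 each of Igkv6-15, Igkv8-21, Igkv12-41 and Igkv3-7. In Y665F replicate 1, Igkv1-135 led 5 and Igkv1-117 led 4, and 9 other segments led 1 each. In Y665H replicate 1, Igkv10-96 led 2, and Igkv1-117, Igkv14-126, Igkv2-109 and Igkv8-30 led 1 each.

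In the edgeR test of BM, 44 segments had a UMI and 2 passed the filter, Igkv14-126 and Igkv1-117. With 1 library left out, 4 to 8 segments passed it, so counts from such fits are out of more than 2 and moved with the filter too. In Y665F against WT, 0 of 2 were called, where 7.85% of all genes tested were called (670 of 8538). Both had an unadjusted p under 0.05, and DESeq2 called 0. Igkv14-126 held 19 and 0 UMIs in WT and 7 and 0 in Y665F (log2 fold change −3.47, SE 1.25, edgeR adjusted p 0.0869). Igkv1-117 held 0 and 0 UMIs in WT and 108 and 0 in Y665F, so its fitted fold change depends on the prior count and is not given (edgeR adjusted p 0.105). Both are segments that were spread over Cd79a-negative barcodes. Leaving out 1 library in turn gave 1 to 3 called segments in Y665F against WT (3 without Y665F replicate 2), where 1.28% to 11.8% of all genes were called, so the count of 0 depends on the set of libraries. In Y665H against WT, 0 of 2 were called, where 0% of all genes were called (0 of 8538), 0 had an unadjusted p under 0.05 and DESeq2 called 0. That count was 3 without Y665H replicate 2 (0.113% of all genes), Y665F replicate 1 (0.170%) or Y665F replicate 2 (0.185%).

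Of the 31 accessory genes tested in BM, 1 rose and 3 fell in Y665F against WT, where 7.85% of all genes were called. At an unadjusted p under 0.05 there were 11, against 26.8% of all genes. DESeq2 called 3 (Stat5a, Ccnd3 and Blnk) and gave no adjusted p for Iglv2. Stat5a, the close relative of the edited gene, rose by 1.76 (SE 0.351, edgeR adjusted p 0.00658). Ccnd3, a cyclin of dividing precursor B cells, fell by 1.67 (SE 0.31, edgeR adjusted p 0.00452), and Blnk, an adaptor of precursor B cell receptor signalling, fell by 1.56 (SE 0.365, adjusted p 0.0156). Neutrophil and monocyte markers were also higher in Y665F, and the summed B lineage markers, Blnk among them, lower than in WT, as given above. The part of these marker differences in the changes was not tested. The calls of Stat5a, Ccnd3 and Blnk were lost without Y665F replicate 2 (edgeR adjusted p 0.0530, 0.155 and 0.280), at log2 fold changes of 1.68, −1.34 and −0.98, and those of Stat5a and Blnk also without WT replicate 2 (adjusted p 0.0748 and 0.0903), at 2.04 and −1.58. An arm then held 1 library, which was assumed to vary like the other groups. Iglv2, a lambda variable gene, fell by 5.68 (SE 0.847, edgeR adjusted p 0.00215). Its 17 and 16 WT UMIs lay in 1 barcode of each library, against 2 and 0 UMIs in Y665F. Igkc stood at 19.7 and 6.73 CPM in WT, 508 and 2.78 in Y665H, and 235 and 4.13 in Y665F, with log2 fold changes of 3.49 (SE 1.52, edgeR adjusted p 0.153) in Y665F and 4.71 (SE 1.52, adjusted p 0.967) in Y665H. Only 5 of its 370 UMIs in Y665H replicate 1, and 82 of 728 in Y665F replicate 1, lay outside plasma-marker barcodes. In Y665H against WT edgeR called 0 of 31, with 5 at an unadjusted p under 0.05 (3.70% of all genes), and DESeq2 called 0.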

How the data were processed

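The authors deposited raw UMI counts per gene and barcode, produced by Cell Ranger. The labels list Cell Ranger 5.0 and Seurat 4.0 and a 3′ kit, and the methods of the study name a 5′ kit. Per the file headers LN was counted with version 5.0.0 and BM and spleen with 6.0.0, so tissue and version cannot be told apart in values set between tissues. The deposited T-cell receptor contig tables served only to count barcodes with a beta chain. Barcodes with at least 200 genes, at most 10% mitochondrial UMIs and at least 1 Cd79a UMI were kept, and no doublet caller was run. Their UMIs were summed per library (13 LN and BM libraries, 253006 to 3203133 UMIs) and fitted with edgeR 4.0.16 (quasi-likelihood F test, TMM factors, filterByExpr, R 4.3.3), with 1 model per tissue that held every genotype. DESeq2 1.42.0 was an alternative. The SE was taken as the log2 fold change over the root of F. Single values per library were tested by exact two-sided permutation and adjusted over the 7 of 10 planned that could be computed. Scripts were tested on simulated data. The text names the 12 segments with the highest mean share of assigned barcodes in each tissue, called segments, called accessory genes and Igkc, and pseudogenes that led barcodes in 3 or more libraries (0 did). Any other segment named was chosen after its values were seen. The members and lists were chosen with earlier results of these data known.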

Additional observations from a re-analysis of the deposited data

Results flagged for a closer look

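Igkv UMIs were also present in barcodes with no Cd79a UMI, outside the barcodes compared above, and in 3 mutant libraries they exceeded the level of both WT libraries of the tissue. In BM the level was 31.9 and 7.38 CPM in WT, 227 and 17.3 in Y665H, and 53.7 and 4.299 in Y665F. In LN it was 208 and 83.0 in WT, 5.16, 13.6 and 2103 in the het libraries, of which replicate 3 is shallow, and 203 and 26.9 in the homo pair. BM Y665F replicate 2, LN het replicates 1 and 2 and LN homo replicate 2 lay below both WT libraries. In LN het replicate 3, 6 Cd79a-negative barcodes with plasma markers held at least 100 Igkv UMIs each. In BM Y665H replicate 1, 8204 UMIs lay in 1 barcode.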

How the results depend on the processing

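The homo minus WT difference in LN detection was −0.196 points in the main setting, 0.372 with at least 2 Cd79a UMIs, 0.831 without barcodes with a Cd3 UMI and −6.23 at 500 UMIs per barcode (exact permutation p = 0.876). The opposite-strand difference, −1.43 points, was 0.0170 with at least 2 Cd79a UMIs. The BM Y665F minus WT level, 567 CPM, was −17.8 without plasma-marker barcodes. No exact test passed 0.05 in any of these. Without the filter on low counts, segments called rose from 0 to 15 of 116 in LN homo, 9 of 116 in LN het, 7 of 44 in BM Y665F and 4 of 44 in BM Y665H, where 0.461%, 0.700%, 5.86% and 0.137% of all genes were called. Scaled to the Igkv total, homo had 6 calls and het 3 (0.322% and 0.311% of all genes), and with plasma-marker barcodes also left out, 0 and 0. With each gene counted 1 time per barcode, BM Y665F had 1 call (7.27% of all genes), and Iglv2 was not tested. Without het 3 and homo 1, an alternative chosen after seeing the data, homo had 10 calls and het 1 (0.272% and 0.223% of all genes). Where an arm is left with 1 library, here and below, that library is assumed to vary like the other groups.

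Leaving out 1 library in turn gave 0 to 7 calls in LN homo, 0 to 3 in LN het, 1 to 3 in BM Y665F and 0 to 3 in BM Y665H. All genes called then ran from 0.0114% to 0.224%, 0.0315% to 0.640%, 1.28% to 11.8% and 0% to 0.185%. In BM Y665F every omission gave calls, 3 of them without Y665F replicate 2, and in BM Y665H there were 3 without Y665H replicate 2 or either Y665F library. These omissions moved the LN level difference between 244 and 13145 CPM (lowest without homo replicate 2), detection between −3.74 and 3.35 points, the effective number between −4.64 and 0.495, the distal share between −5.37 and −2.85 points, the opposite-strand share between −3.14 and 0.277 points, the BM level between −49.95 and 1185 CPM and BM detection between −2.18 and 1.14 points.

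Same-numbered libraries deviated together in some BM pairs only (correlation of deviations 0.132, 0.237 and −0.0100, and between −0.0332 and 0.0543 in LN), and the labels do not say that a number marks a shared animal or day, so the numbers were not taken to pair libraries. With the replicate block, BM Y665F had 2 calls where 10.5% of all genes were called (Igkv14-126 lower, Igkv1-117 higher), and the LN and BM Y665H counts stayed at 0. In BM, 3 planned values (effective number, distal and opposite-strand share) could not be computed. For the 4 accessory genes called in BM Y665F, alternatives were added after seeing the data. With at least 2 Cd79a UMIs the calls of Stat5a and Blnk were lost (log2 fold changes 1.54 and −1.36, edgeR adjusted p 0.125 and 0.0921), and none of the 4 changed sign. Depth limits the shallow LN libraries, and the BM repertoires are limited by the few barcodes that hold Igkv.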
